A study of Mus musculus with 4 samples.

Results

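The myosin-binding protein C and H genes were examined in differentiating mouse C2C12 myoblasts that had received GDF8 (myostatin) or no addition. The family was taken as Mybpc1, Mybpc2, Mybpc3 and Mybph, and its probes were those whose gene name in the scanner files was 1 of these 4. That rule found 4 of the 41174 probes that were not controls: A_51_P455157 for Mybpc2, A_51_P465449 for Mybpc3, and A_51_P137121 and A_51_P137125 for Mybph. No probe carried the name Mybpc1, but A_51_P487404, named 8030451F13Rik in the files, matched Mybpc1 by its transcript accession and was added, which made 5 probes.

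C2C12 is a line of mouse myoblasts that fuse into myotubes once serum is lowered. The cells exposed to GDF8 received 20 nM recombinant mouse myostatin every 24 h through 6 days of differentiation, and the untreated cells went through the same 6 days without it. For both groups the growth protocol puts horse serum at 2% during differentiation, whereas the source names put it at 10%. RNA of 1 GDF8 culture and 1 untreated culture was hybridised to each of 4 arrays in Cy5 and Cy3, with GDF8 in Cy5 on replicates 2 and 3 and in Cy3 on replicates 1 and 4. The labels call the arrays biological replicates without saying how cultures were kept apart, so p-values measure the spread between these arrays, which may be technical.

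Myosin-binding protein C lies in transverse stripes along the A-band of the sarcomere, where its carboxy-terminal end is anchored to the thick filament and to titin and its amino-terminal end can reach myosin heads and actin. Phosphorylation of the protein loosens its hold on myosin heads and so tunes contraction. Mybpc1 encodes the slow skeletal form, Mybpc2 the fast skeletal form and Mybpc3 the cardiac form, and Mybph encodes a shorter relative that shares the carboxy-terminal domains. Myostatin, a ligand of the TGF-beta family made by muscle, limits muscle growth and restrains the differentiation of myoblasts in culture.

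The promoters of the 4 genes are shown because 3 of the genes were lower together. Each window runs from 250 bases before to 50 bases after the gene's start, 5′ to 3′ on the gene's own strand, from RefSeq on build GRCm38.p6. All 4 genes matched an entry by symbol. Capitals mark every E-box, CANNTG, the core bound by myogenic bHLH factors, and every match to the MEF2 site consensus.
Mybpc1, chr10:88605103-88605402, minus strand: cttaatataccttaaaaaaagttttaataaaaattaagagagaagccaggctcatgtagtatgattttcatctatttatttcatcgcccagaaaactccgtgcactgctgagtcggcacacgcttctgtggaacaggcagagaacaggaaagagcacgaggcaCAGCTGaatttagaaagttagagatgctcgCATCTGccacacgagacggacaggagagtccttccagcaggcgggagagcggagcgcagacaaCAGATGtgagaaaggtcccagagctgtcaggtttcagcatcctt
Mybpc2, chr7:44524620-44524919, minus strand: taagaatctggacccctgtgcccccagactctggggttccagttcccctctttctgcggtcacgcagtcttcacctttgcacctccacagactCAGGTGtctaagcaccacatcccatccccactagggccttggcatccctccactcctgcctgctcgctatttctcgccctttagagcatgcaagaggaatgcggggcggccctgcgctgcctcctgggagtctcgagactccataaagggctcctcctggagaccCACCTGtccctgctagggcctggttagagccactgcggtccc
Mybpc3, chr2:91117894-91118193, plus strand: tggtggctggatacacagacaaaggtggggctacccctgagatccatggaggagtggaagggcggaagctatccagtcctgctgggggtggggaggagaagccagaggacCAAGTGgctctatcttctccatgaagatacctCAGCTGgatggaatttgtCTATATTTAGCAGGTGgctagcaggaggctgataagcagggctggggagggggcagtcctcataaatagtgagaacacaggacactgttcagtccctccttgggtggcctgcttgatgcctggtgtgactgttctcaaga
Mybph, chr1:134193198-134193497, plus strand: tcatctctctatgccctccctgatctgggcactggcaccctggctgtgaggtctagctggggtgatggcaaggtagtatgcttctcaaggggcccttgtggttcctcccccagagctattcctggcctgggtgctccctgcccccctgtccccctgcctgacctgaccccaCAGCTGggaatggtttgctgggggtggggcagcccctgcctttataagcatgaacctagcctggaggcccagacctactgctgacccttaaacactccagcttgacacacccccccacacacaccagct

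The promoter windows of Mybpc1 and Mybpc3 held 3 E-boxes each, that of Mybpc2 held 2 and that of Mybph held 1. At least 1 CANNTG was present in 72.3% of the 32851 promoters of the same length, so its presence does not set the family apart. CAGCTG, a subset of CANNTG, was found once each in Mybpc1, Mybpc3 and Mybph, starting 87, 108 and 79 bases before the gene's start, and in 16.3% of all promoters. CAGGTG or its reverse complement CACCTG, another subset, was found 2 times in Mybpc2 and 1 time in Mybpc3, against 20.2% of all promoters with a match. In Mybpc3 a MEF2 site, read as CTATATTTAG from 90 bases before the start, was followed directly by CAGGTG, and a MEF2 site was present in 3.19% of all promoters. CATTCC, the MCAT core, searched on both strands, was found 1 time each in Mybpc2 and Mybph, against 14.7% of all promoters. CAGAC, a SMAD-binding core, had 2 matches in Mybpc2 and 1 in each of the other promoters, against 49.6% of all promoters with a match. The CArG box, present in 1.63% of all promoters, had no match in the 4 windows. These are matches of letters and show no binding.

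Over each array as a whole, 0.745% to 12.1% of spots were saturated in the GDF8 channel and 4.11% to 11.1% in the untreated channel, and 63.3% to 78.8% were well above background in the GDF8 channel and 67.1% to 77.5% in the untreated channel. Of 8 markers of the muscle line, all 8 were well above background on the 4 arrays in both groups. The muscle creatine kinase gene Ckm was lower after GDF8 (-0.93, limma, adjusted p = 0.049). Myog, Des, Cdh15 and Chrna1 were saturated in all 4 untreated channels, so they give no ratio. Myod1 and Itga7 were saturated in part of the channels of both groups. Only Ckm and Myf5, which gave 0.03 and did not pass, were never saturated. A feature is the brightest probe of a gene, and 17444 features were tested with limma, of which 402 were lower after GDF8 (2.30%) and 150 were higher (0.860%) at an adjusted p under 0.05, or 3.16% in either direction. The counts of lower and higher features were 76 and 8 without replicate 4, and 107 and 12 without replicate 2. Without replicate 1 they were 322 and 95. With all 4 arrays, the median fitted ratio of the 17444 features was 0.01 on the log2 scale. Ratios below are GDF8 over untreated on the log2 scale, so that a negative value is lower with GDF8. The ± beside a fitted ratio is limma's standard error over 4 arrays. It is taken after a dye term, so a difference between the 2 dye orientations does not widen it.

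All 3 myosin-binding protein C genes were lower in GDF8 cells, by 2.54-fold for Mybpc1, 3.20-fold for Mybpc2 and 2.79-fold for Mybpc3, against 2.30% of all features called lower. The fourth gene, Mybph, was too bright for the scanner and gave no ratio. In these bulk RNA samples, fewer cells that express a gene and less of its RNA per cell cannot be told apart. None of the 3 genes had a saturated pixel in any channel, none was called an outlier spot, and each was well above background on all 4 arrays in both groups. The ratio was below 0 in all 12 combinations of gene and array and beyond 1.6-fold in all 12, the fold that the study's design text sets. It was beyond 2-fold in 10 of the 12. Among all 17444 features, 8.24% were below 0 on all 4 arrays and 0.447% were beyond 1.6-fold lower on all 4. Groups of levels that did not overlap, given below for each gene, were not counted over all features. They are a description and do not set the 3 genes apart.

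Mybpc1, the slow skeletal form, had normalised log2 levels of 9.54, 9.76, 10.29 and 9.66 in GDF8 cells on replicates 1 to 4, against 11.14, 11.01, 11.15 and 11.33 in untreated cells. The groups did not overlap, and the highest GDF8 level, on replicate 3, lay 0.72 below the lowest untreated level. The mean was 9.81 ± 0.33 in GDF8 cells and 11.16 ± 0.13 in untreated cells (SD, n = 4 each). The ratio on replicates 1 to 4 was -1.60, -1.25, -0.86 and -1.67, and the fitted ratio was -1.34 ± 0.10 (limma, adjusted p = 0.0083). By SD the untreated level varied less than the GDF8 level for this gene. In GDF8 cells the value farthest from the rest was the 10.29 of replicate 3, and the spreads were not compared by a test.

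Mybpc2, the fast skeletal form, had normalised log2 levels of 12.96, 13.36, 13.62 and 13.08 in GDF8 cells on replicates 1 to 4, against 14.95, 15.29, 14.40 and 15.10 in untreated cells. The groups did not overlap, and the gap between the highest GDF8 level and the lowest untreated level was 0.78, with replicate 3 at both edges. The mean was 13.26 ± 0.29 in GDF8 cells and 14.94 ± 0.38 in untreated cells (SD, n = 4 each). The ratio was -1.99, -1.93 and -2.02 on replicates 1, 2 and 4 but -0.78 on replicate 3, and the fitted ratio was -1.68 ± 0.18 (limma, adjusted p = 0.011). Without replicate 3 the fitted ratio was -1.97 (adjusted p = 0.0039), and without replicate 4 it was -1.67 and did not pass (adjusted p = 0.053).

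Replicates 2 and 3 carried GDF8 in the same dye, so their scanner signals for Mybpc2, before any scaling between arrays, are given side by side. The GDF8 channel read 18531 and 18515 scanner units on replicates 2 and 3, and the untreated channel read 30210 and 17209. As read, the untreated signal was the one that differed, whereas after normalisation both levels differed, at 13.36 and 13.62 in GDF8 cells and 15.29 and 14.40 in untreated cells. The untreated local background for this spot was 89 on replicate 2 and 121 on replicate 3. For Mybpc1 the GDF8 channel read 1421 and 1643 on the same arrays and the untreated channel 1740 and 1962, so replicate 3 was the higher in both. For Mybpc3 the GDF8 channel read 836 and 617 and the untreated channel 1479 and 1043, so replicate 3 was the lower in both.

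Mybpc3, the cardiac form, had normalised log2 levels of 9.24, 9.04, 9.03 and 9.21 in GDF8 cells on replicates 1 to 4, against 10.65, 10.71, 10.14 and 10.95 in untreated cells. The groups did not overlap, and the gap between them was 0.90. The mean was 9.13 ± 0.11 in GDF8 cells and 10.61 ± 0.34 in untreated cells (SD, n = 4 each). The ratio on replicates 1 to 4 was -1.41, -1.67, -1.10 and -1.74, and the fitted ratio was -1.48 ± 0.12 (limma, adjusted p = 0.0083). Here the SD was smaller in GDF8 cells, the reverse of Mybpc1. In untreated cells the value farthest from the rest was the 10.14 of replicate 3, and the spreads were again not tested.

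**Figure D1:**
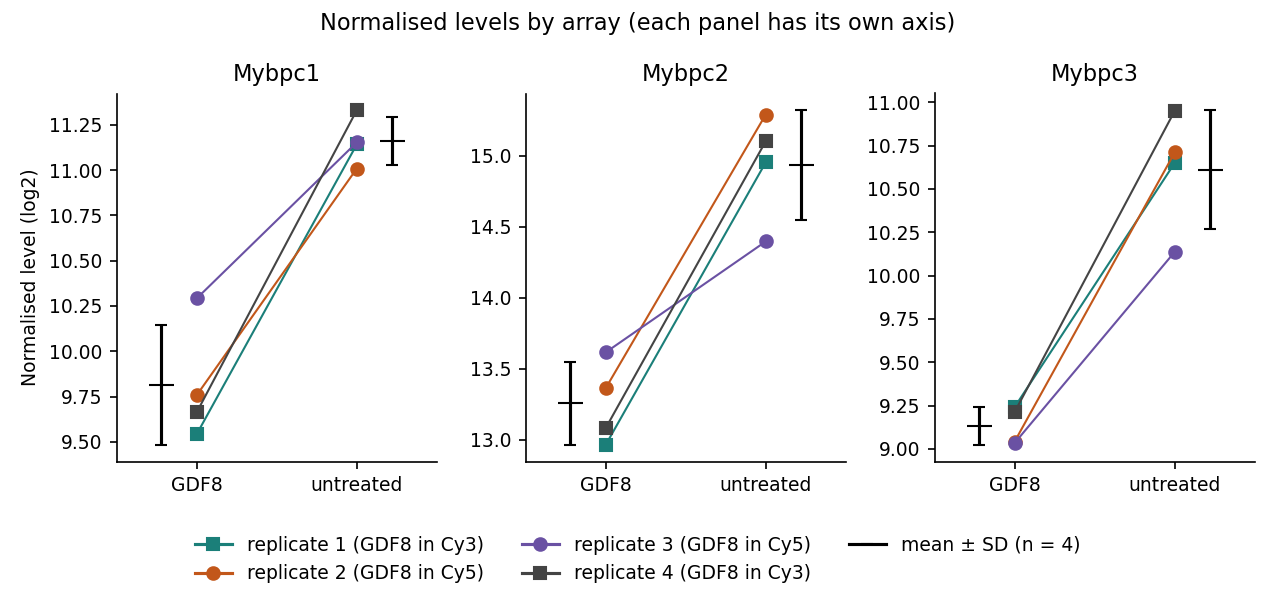
Normalised log2 level (vertical axis, its own scale in each panel) of Mybpc1, Mybpc2 and Mybpc3 in GDF8 and untreated channels, with a line for each array, a circle or square for the dye of GDF8, and mean ± SD (n = 4) at the sides. Every line rises towards untreated, and the flattest Mybpc2 line is replicate 3, where its ratio was -0.78.

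The ratios were also set out by dye. With GDF8 in Cy5 the mean ratio was -1.06 for Mybpc1, -1.35 for Mybpc2 and -1.39 for Mybpc3, and with GDF8 in Cy3 it was -1.63, -2.01 and -1.57 for the same genes. Each mean covers 2 arrays, and the Cy5 pair holds replicate 3. For Mybpc2, replicate 2 in Cy5 gave -1.93, close to the -1.99 and -2.02 of the Cy3 arrays, and replicate 3 gave -0.78. For Mybpc1 the orientations did not overlap, at -1.25 and -0.86 in Cy5 and -1.60 and -1.67 in Cy3. With 2 arrays in each orientation, dye and replicate cannot be told apart. For Mybpc3 the orientations interleaved. For Mybpc1 and Mybpc2 the dye term of the fit was 0.29 and 0.33, and for Mybpc3 it was 0.09, all smaller in size than the fitted ratio of the same gene. In both orientations every array was beyond 1.6-fold lower for each gene.

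**Figure D2:**
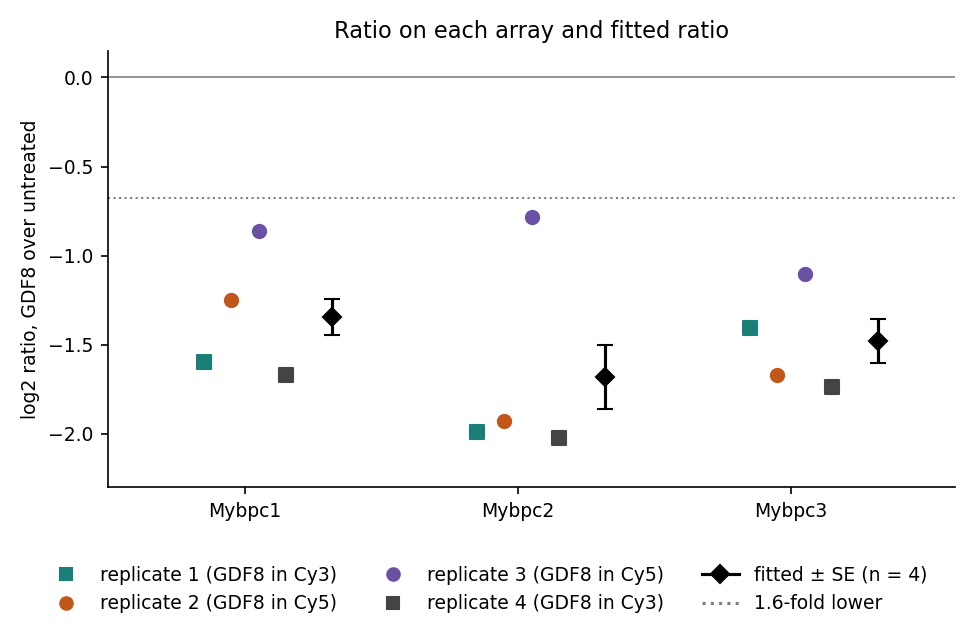
The log2 ratio of GDF8 over untreated (vertical axis) on each array for Mybpc1, Mybpc2 and Mybpc3, with circles where GDF8 was in Cy5 and squares where it was in Cy3, and the fitted ratio ± SE (n = 4) as a diamond. All 12 points lie below the dotted line at 1.6-fold lower, and replicate 3 is the highest point of each gene.

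The 3 genes were not told apart by size of change. Over the 4 arrays the ratio of Mybpc1 minus that of Mybpc2 averaged 0.34 (95% interval -0.16 to 0.83), Mybpc1 minus Mybpc3 averaged 0.13 (-0.28 to 0.55), and Mybpc2 minus Mybpc3 averaged -0.20 (-0.80 to 0.40). The exact two-sided sign-change test over arrays gave p = 0.25, 0.375 and 0.5 for these 3 pairs, with an adjusted p = 0.5 for each, and 4 arrays cannot give less than 0.125. Mybpc2 had a lower ratio than Mybpc1 on replicates 1, 2 and 4 and a higher one on replicate 3. The intervals leave room for differences of up to 0.83 between Mybpc1 and Mybpc2, so the test does not show that the genes responded alike.

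Among the 17444 features, the fitted ratio of Mybpc2 was the fourth lowest, that of Mybpc3 ranked 8 and that of Mybpc1 ranked 23, counting from the lowest. By array, Mybpc2 ranked 2, 3, 253 and 9 on replicates 1 to 4, Mybpc3 ranked 32, 13, 48 and 23, and Mybpc1 ranked 12, 59, 171 and 27. Each gene was thus within the lowest 1.45% of features on every array, and Mybpc3 within the lowest 0.275%. On replicate 3 the ratios of features called lower were smaller in general, with a median of -0.51, against -0.84, -0.79 and -1.004 on replicates 1, 2 and 4.

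**Figure D3:**
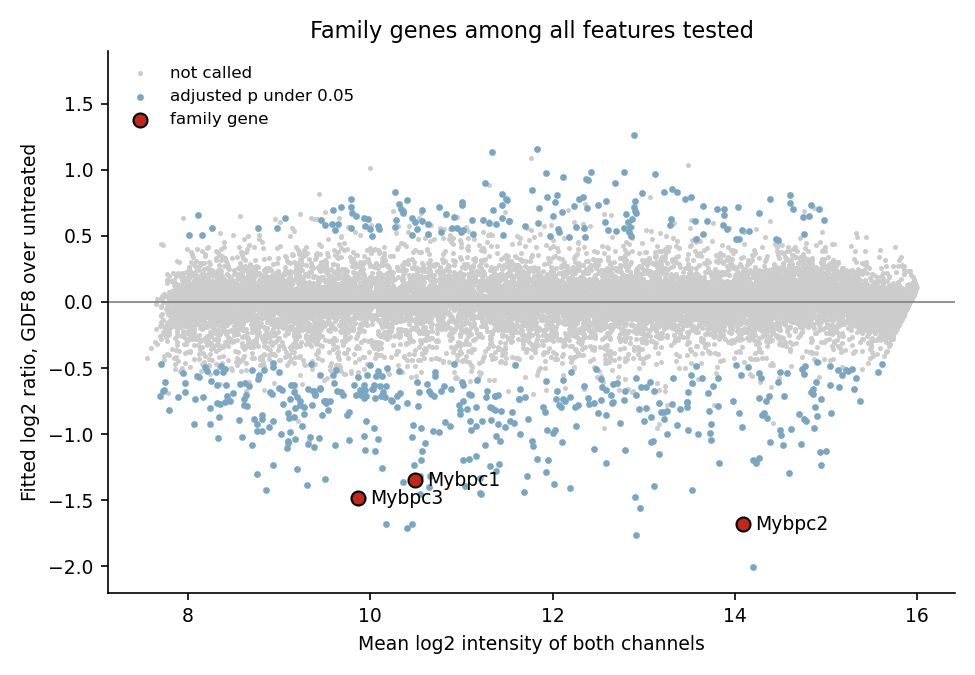
Fitted log2 ratio of GDF8 over untreated (vertical axis) against the mean log2 intensity of both channels (horizontal axis) for the features tested other than Mybph, with called features in blue. Mybpc1, Mybpc2 and Mybpc3, at -1.34, -1.68 and -1.48, lie at the lower edge, where they rank 23, 4 and 8 from the lowest.

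For each of the 3 genes, the features with the nearest set of ratios over the 4 arrays were named by the root mean square difference. For Mybpc1 these were Tcap, the titin cap protein of the Z-disc (0.06), Camk2b, a calcium and calmodulin-dependent kinase (0.10), and the chemokine gene Cxcl13 (0.11). Tcap had ratios of -1.58, -1.19, -0.77 and -1.63 on replicates 1 to 4, smallest on replicate 3 as for Mybpc1. For Mybpc2 they were Synpr, a synaptic vesicle protein (0.16), Tceal7 (0.17) and Tnfrsf19, a TNF receptor superfamily gene (0.26). Tceal7 shared the small ratio on replicate 3, with -1.79, -1.66, -0.71 and -2.07 on replicates 1 to 4. For Mybpc3 they were Tecrl (0.07), Armh4 (0.12) and Cd28, a T-cell co-stimulatory receptor gene (0.15). Tecrl had ratios of -1.44, -1.76, -1.05 and -1.64 on replicates 1 to 4.

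None of these 9 features had a saturated channel, and each was itself called lower (limma, adjusted p from 0.0083 to 0.011). Their calls and their pattern over the arrays follow from how they were picked, by closeness to genes called lower. The family's own members were not each other's nearest features. Mybpc3 ranked 22 among the neighbours of Mybpc1 and 13 among those of Mybpc2. Mybpc2 ranked 91 among those of Mybpc1 and 43 among those of Mybpc3. Mybpc1 ranked 16 among those of Mybpc2 and 18 among those of Mybpc3. These ranks were counted over the other features of the 17444 tested, so all lay near the top. Likeness over 4 arrays is a description and carries no test.

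Mybph, the myosin-binding protein H gene, could not be measured as a ratio. In the untreated channel both of its probes were saturated on all 4 arrays, with every pixel of the spot saturated, at 65261 to 65299 scanner units, the scanner's ceiling. In the GDF8 channel the first probe, A_51_P137121, read 62221, 65261, 65261 and 29801 on replicates 1 to 4 and was flagged as saturated on replicates 2 and 3, with 23 of 62 pixels also saturated on replicate 1. The second probe, A_51_P137125, read 65145, 65261, 65261 and 35189 and was saturated on replicates 1, 2 and 3. On replicate 4 both probes were below the ceiling with no saturated pixel in the GDF8 channel, which was Cy3 there.

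No fold is given, since the untreated channel was at the ceiling throughout and the GDF8 channel was saturated with it on 2 arrays for the first probe and 3 for the second. On replicate 4, the only array with both probes unsaturated in GDF8, the normalised ratio was -0.02 for the first probe and 0.16 for the second, with the untreated channel at its ceiling. The authors' deposited table lists ratios of 0.80, -1.32, -0.90 and 0.68 for the first probe and 0.86, -1.31, -0.89 and 0.91 for the second on replicates 1 to 4. Those deposited ratios are above 0 on both arrays with GDF8 in Cy3 and below 0 on both with GDF8 in Cy5. They therefore give no direction for Mybph, in contrast to Mybpc1, Mybpc2 and Mybpc3, whose deposited ratios ran from -2.08 to -0.83 and were below 0 on every array.

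**Figure D4:**
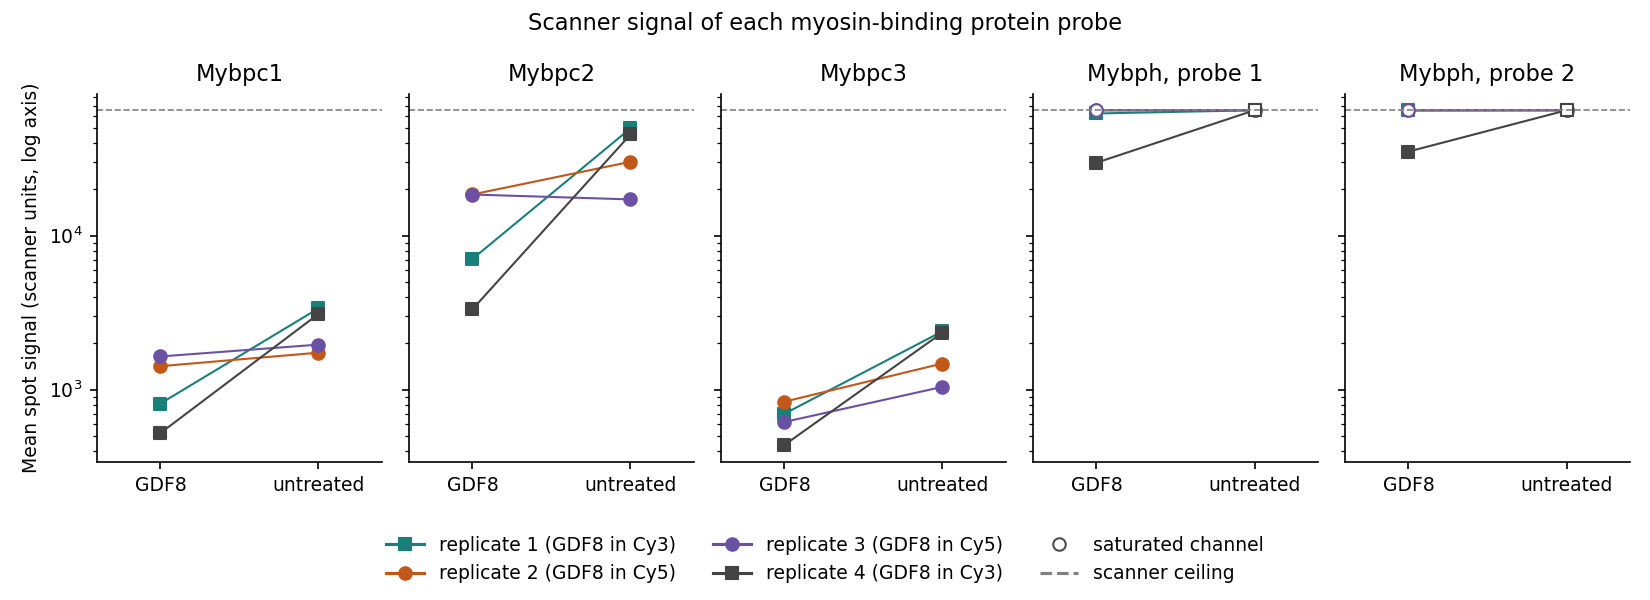
Mean spot signal in scanner units (vertical log axis) of the 5 probes in GDF8 and untreated channels, with a line for each array, open symbols for saturated channels and a dashed line at the scanner's ceiling of 65261. Both Mybph probes sit at the ceiling in all 4 untreated channels, while the other 3 probes lie below it throughout.

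The genes that share the A-band with the family moved in 1 direction where they passed the test. Of 28 tested genes for thick-filament proteins, titin, the M-band and their assembly, 7 were lower after GDF8 and 0 higher, 25% against 2.30% of all features. The list's median ratio was -0.17, against 0.01 over all features. The smallest p-values were those of Myl2, a regulatory myosin light chain (-2.01 ± 0.19), Myom3, a myomesin of the M-band (-0.75 ± 0.09), and Myh2, a fast myosin heavy chain (-1.22 ± 0.17). Myl2 was saturated in 1 untreated channel and Myom3 in 2 channels of each group. Myom3 gave -1.28 and -1.25 on replicates 1 and 4, with GDF8 in Cy3. It gave only -0.32 and -0.14 on replicates 2 and 3, with GDF8 in Cy5.

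Without replicate 4, 1 A-band gene was lower, without replicate 2 it was 2, without replicate 1 it was 3, and without replicate 3 it was 7. Saturation limited this list as it did Mybph. In 14 of the 28 genes the probe was saturated on all 4 arrays of a group, and among probes never saturated 5 of 14 genes were lower, with a median of -0.50. Over all features on probes never saturated, 409 of 15100 were lower (2.71%), with a median of 0.01, and this is the share to set beside each such count that follows. Of 20 thin-filament genes 3 were lower and 0 higher, 15% against 2.30% of all features, with a median of -0.03, and 13 had a whole group saturated. Those lower were Lmod2, a leiomodin that acts on actin filament ends (-0.76 ± 0.09), Nrap, an actin-binding protein of forming myofibrils (-0.70 ± 0.09), and Tnni3, the cardiac troponin I (-1.40 ± 0.19). Nrap gave -1.19 and -1.01 on replicates 1 and 4, with GDF8 in Cy3, but -0.21 and -0.38 on replicates 2 and 3. Without replicate 4 no thin-filament gene passed, and without replicate 2 it was 1. Among probes never saturated, 5 of 9 thin-filament genes were lower, 55.6% against 2.71%, with a median of -0.70, now with Tmod1, a tropomodulin (-0.97 ± 0.11), and Neb, nebulin (-0.76 ± 0.12).

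Relatives that carry immunoglobulin and fibronectin type III domains, the building blocks of myosin-binding protein C, gave 4 of 13 lower and 0 higher, 30.8% against 2.30% of all features, with a median of -0.12. The smallest p-values were those of Myot, a Z-disc protein (-1.13 ± 0.10), and the M-band genes Myom3 and Myom1 (-0.96 ± 0.13). Among probes never saturated, 3 of 11 were lower, 27.3% against 2.71%, with a median of -0.34. Without replicates 1, 2 and 4 in turn, 2, 1 and 1 of these relatives were lower.

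The fibre-type partners of each form were also counted. Of 10 slow-fibre isoform genes other than Mybpc1, Myl2 alone was lower and 0 were higher, 10% against 2.30% of all features, with a median of -0.06, and 7 had a whole group saturated, Myl3 among them. Among probes never saturated, 1 of 4 slow-fibre genes was lower, 25% against 2.71%, with a median of -0.49. On such probes Myl3 gave 0.17 ± 0.18, Tpm3 -0.43 ± 0.11 and Atp2a2 -0.56 ± 0.13, and none of these passed. Myoz2, a slow-fibre calsarcin, gave -0.30 ± 0.10 on its brightest probe, saturated in 2 untreated channels, and did not pass. Its probe that was never saturated gave -0.83 ± 0.13 (limma, adjusted p = 0.019). Of 12 fast-fibre isoform genes other than Mybpc2, 4 were lower and 0 higher, 33.3% against 2.30% of all features, with a median of -0.10, and 7 had a whole group saturated. Among probes never saturated, 4 of 5 fast-fibre genes were lower, 80% against 2.71%, with a median of -0.86. The 4 were the calcium pump Atp2a1 (-0.86 ± 0.09), the calcium store protein Casq1 (-1.06 ± 0.13), Myh2, and the Z-disc protein Myoz1 (-0.68 ± 0.10). Atp2a1 gave -1.20 and -1.34 on replicates 1 and 4, with GDF8 in Cy3, but -0.44 and -0.45 on replicates 2 and 3. Without replicate 4, 1 of the fast-fibre genes was lower. Myh1 gave -0.57 ± 0.14 on a probe never saturated and did not pass. With a whole group saturated on the brightest probe of 7 genes in either list, no difference between slow and fast forms was tested.

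Of 9 cardiac-type genes other than Mybpc3, 3 were lower and 0 higher, 33.3% against 2.30% of all features, with a median of -0.005 (4 had a whole group saturated). Among probes never saturated, 3 of 6 cardiac-type genes were lower, 50% against 2.71%, with a median of -0.57. Tnni3, Myh6, a cardiac myosin heavy chain (-0.97 ± 0.14), and Csrp3, the muscle LIM protein (-0.66 ± 0.09), were lower. Csrp3 gave -1.10 and -1.21 on replicates 1 and 4, with GDF8 in Cy3. It gave only -0.29 and -0.04 on replicates 2 and 3, with GDF8 in Cy5. Without replicate 4 no cardiac-type gene passed, and without replicate 2 it was 1. Nppb, a natriuretic peptide gene, gave 0.51 ± 0.11 and did not pass. Of 8 markers of heart muscle cells, 6 were well above background on all 4 arrays in both groups, and 2 of those, Myh6 and Tnni3, were lower. Both are among the 3 cardiac-type genes already counted, so they add no further call. With 2 lower genes, the marker list holds too few calls to set beside the 2.30% of all features. The heart transcription factors Nkx2-5 and Gata4 gave 0.21 and -0.16 without passing. The summed normalised signal of these 8 markers ran from 10368 to 11474 in GDF8 cells and from 11144 to 17512 in untreated cells, and its part in the result for Mybpc3 was not tested.

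Markers of other cell types were read in the same way. Of 5 smooth muscle markers, 3 were well above background on all 4 arrays in both groups. Among those 3, Lmod1, a leiomodin of smooth muscle, was lower (-0.48, limma, adjusted p = 0.040). Cnn1 went the other way at 0.56 (limma, adjusted p = 0.086) and Smtn gave -0.20, and neither passed. With 1 lower gene, this list holds too few calls to set beside the 2.30% of all features. The summed normalised signal of the 5 smooth muscle markers ran from 29490 to 37083 in GDF8 cells and from 38596 to 45447 in untreated cells. The sums for adipocyte markers, for bone and cartilage markers and for blood, endothelial and nerve markers overlapped between the groups, with 0 genes called, and Ibsp, Ptprc and Pecam1 were not well above background on any array. The part of these markers in the results for the family was not tested.

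Among 15 kinases and phosphatases known from work on cardiac and skeletal myosin-binding protein C, Camk2b was lower (-1.32 ± 0.12) and 0 were higher, and the median was -0.01. Camk2a (-0.50 ± 0.14) and Prkca, a protein kinase C (0.29 ± 0.10), did not pass. Among 12 factors of the myogenic, MEF2, TEAD and related families, Mef2c was lower (-0.95 ± 0.11) and 0 were higher, with a median of 0.01, and without replicate 2 no factor passed. Myf6, a myogenic bHLH factor (-0.41 ± 0.09), and Tead4, which binds MCAT elements (-0.38 ± 0.09), did not pass. At 6.67% and 8.33%, 1 lower gene each, these lists hold too few calls to set beside the 2.30% of all features.

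**Figure D5:**
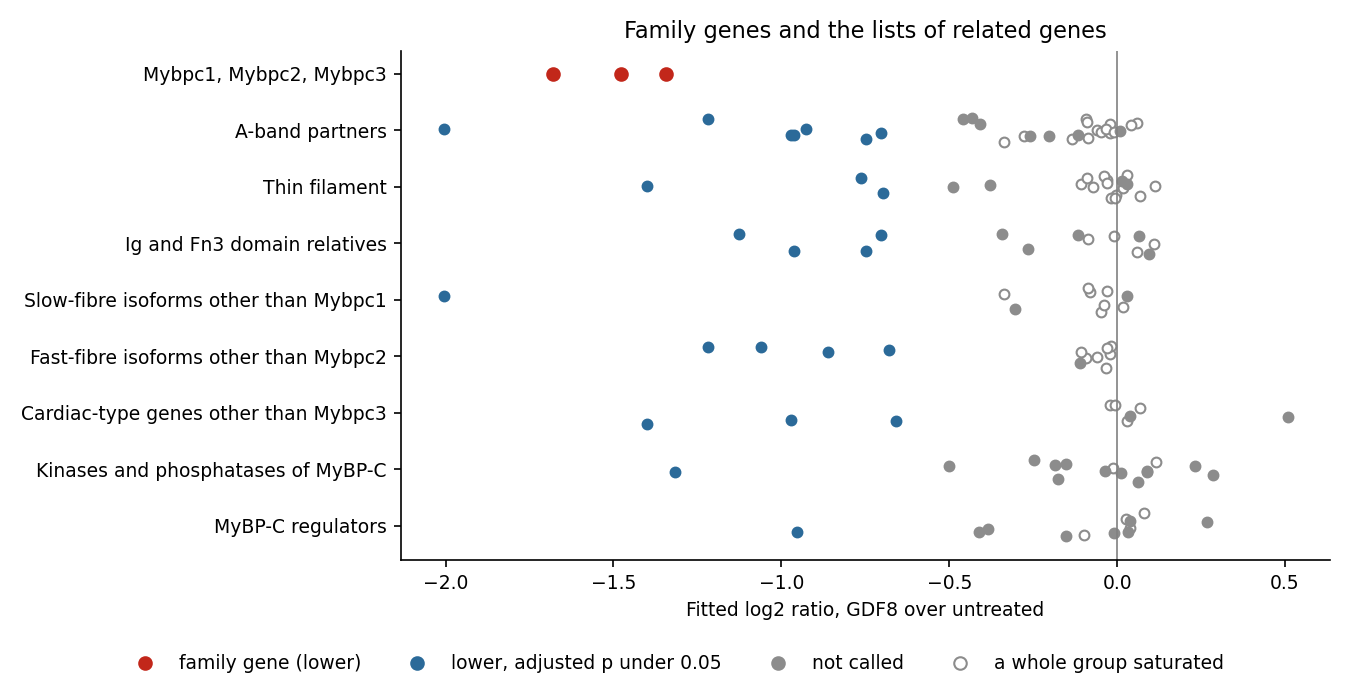
Fitted log2 ratio of GDF8 over untreated (horizontal axis) for the 3 family genes with a ratio and for each tested gene of the 8 lists (rows), with called genes in blue and open symbols where a whole group was saturated. The family genes lie between -1.68 and -1.34, the open symbols lie between -0.34 and 0.12, and 0 genes of any list were called higher.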

How the data were processed

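Per the file headers, the deposited scanner files give, for each spot and dye, an intensity (mean) with its local background (median), and a log10 ratio of Cy5 to Cy3, from Agilent Feature Extraction 9.1.1.1 for array design 014868. The log2 ratios in the authors' deposited table equalled the log2 ratio of processed signals turned to GDF8 over untreated within 0.001 in 100% of 40929 single-spot probes. No centring was seen: the column medians were 0.14, -0.09, -0.11 and 0.09. Per the series' design text, the authors filtered on flags in GeneSpring and used an unpaired test with a 1.6-fold limit. No genome build for the arrays is given in the sources used here.

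Mean signals were background-corrected (normexp, offset 50) and loess-normalised within arrays, control spots having weight 0 (limma 3.58.1, R 4.3.3). Outlier spots were left out and spots of a probe averaged. A probe entered if well above background on all 4 arrays in either group (26577 of 41174), and the brightest stood for a gene. Names came from RefSeq (24375 probes by accession, 6301 by symbol, 2426 by synonym, 8072 kept). Ratios were fitted with a GDF8 term and a dye term, adjusted by Benjamini-Hochberg over 17444 features at 0.05. Levels are single channels after Aquantile scaling. The array is the block, and all 4 arrays lay on 1 slide. The fit code was checked on simulated ratios with known changes and independent normal noise. That check modelled neither saturation nor a difference in strength between arrays, so it says nothing about either.

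The members, lists and tests were chosen with earlier results of these data known. Named genes were all family probes, the 3 nearest features to each measured member and up to 3 genes with the smallest p in each list, and others named were chosen after their values were seen. The small number of arrays limits precision.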

Additional observations from a re-analysis of the deposited data

Results flagged for a closer look

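The Mybpc2 ratio on replicate 3, -0.78, lay far from those of the other arrays, which ran from -2.02 to -1.93. Its gap to the nearest of them was 0.92 of the whole range by Dixon's test, above the 95% critical value for 4 values. Of 9 sets of 4 values searched for Mybpc1, Mybpc2 and Mybpc3 (ratios, GDF8 levels and untreated levels), this 1 stood out, where chance flags about 1 in 20. The Mybpc2 levels of replicate 3, 13.62 in GDF8 and 14.40 in untreated cells, did not stand out on their own.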

How the results depend on the processing

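The falls of Mybpc1 (-1.49 to -1.25) and Mybpc3 (-1.71 to -1.34) kept their direction and passed under all 16 alternatives run (the deposited table and Agilent's processed signals being the same values), with adjusted p-values up to 0.046 and 0.041. Mybpc2 (-1.97 to -1.39) passed under 14. The call was lost when replicate 4 was left out (adjusted p = 0.053) and by the methods' t-test after Benjamini-Hochberg with the 1.6-fold limit, where the difference was -1.68 (adjusted p = 0.056). Without each replicate in turn Mybpc1 ran from -1.44 to -1.25, Mybpc2 from -1.97 to -1.39 and Mybpc3 from -1.62 to -1.34. The differences between members kept their sign under 12 alternatives, and Mybpc2 minus Mybpc3 shrank to -0.01 with Agilent's processed signals. The count of higher features changed from 150 to 66 without the dye term. With no replicate block, as unpaired single-channel values, 58 features were higher and 265 lower, and all 3 genes passed. By the methods' t-test and fold 69 were higher, and after Benjamini-Hochberg 12 were higher and 75 lower. Without each replicate in turn, 8 to 107 features were higher and 76 to 322 lower, fewest without replicate 4 (8 and 76) and replicate 2 (12 and 107), and 95 were higher without replicate 1. Mybph has no ratio under any alternative, since its untreated channels were saturated. Leaving out each replicate in turn, chosen after seeing the data, gave 1 to 7 lower genes among A-band partners, 0 to 3 among thin-filament genes, 1 to 4 among relatives, 1 to 4 among fast-fibre genes, 0 to 3 among cardiac-type genes, 0 to 1 among regulators, and 1 each among slow-fibre genes and kinases. The cause of these losses was not tested; each such fit has 1 array fewer.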

Other observations

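Mybphl, a close relative of Mybph that is best known from the atria of the heart, had 1 probe, which was well above background in 1 of 4 GDF8 channels and 1 of 4 untreated channels. It was not tested, and its normalised log2 level was 7.29 ± 0.25 in GDF8 cells and 7.40 ± 0.20 in untreated cells (SD, n = 4 each), with overlapping groups.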
